A study of Homo sapiens with 32 samples.

Results

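The 50 genes described here act in DNA replication or in mitosis. They comprise 26 S phase genes and 24 mitotic genes, were taken by symbol from a fixed list of names, and each matched 1 of the 60660 gene identifiers in the count table. All 50 had enough counts to be tested in every comparison. Counts come from 32 poly(A) libraries of HCT116, a human colorectal carcinoma line, in which IGF2BP3 or IGF2BP2 had been disrupted with Cas9. Both genes encode members of a family of mRNA-binding proteins.

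Parental cells gave 4 libraries in DMSO and 4 in tunicamycin, from 2 parental samples. IGF2BP3 knockout gave 6 and 6, from clones A3, D12 and E4. IGF2BP2 knockout gave 6 and 6, from clones B7, F6 and G6. All groups, controls included, carry the tetON OsTIR1 transgene, which is switched on by doxycycline. Each knockout line is a single sorted cell's progeny, and each line had 2 libraries per treatment, numbered 1 and 2. Tunicamycin, an inhibitor of N-linked glycosylation, was given at 5 µg/mL for 4 h to parental and IGF2BP3 knockout cells. For clones B7, F6 and G6 the sources used here give no dose or duration. The labels do not say that numbered libraries are separate cultures, so p-values measure the spread between these libraries, which may be partly technical. Total counts were 16651438 to 24913021 per library, with a median of 21441775.5.

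A cell duplicates its DNA in S phase and divides in mitosis, and transcripts for both tasks rise and fall through the cycle. S phase genes are switched on from late G1 by E2F factors once cyclin-dependent kinases have inactivated RB1. Mitotic genes follow in G2, when the MuvB complex with MYBL2 and FOXM1 acts at a promoter element called the cell cycle homology region (CHR). The same element is bound by the repressive DREAM complex. Tunicamycin brings on the unfolded protein response, whose PERK branch lowers translation and is known to delay the cycle in G1 through loss of cyclin D1.

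The promoters of the members carry these elements unequally. Promoters came from RefSeq (GRCh38.p14), cover 250 bases before and 50 after the start, and were found for 43 of the 50 genes. An E2F sequence (TTTCCCGC, TTTGGCGC, TTTCGCGC or TTTGCCGC, either strand) was present for 16 of 23 S phase genes and 1 of 20 mitotic genes, CDK1, against 3.99% of all 27305 genes in the table. A CHR sequence (TTTGAA or TTCGAA, either strand) was present for 2 of 23 S phase genes and 15 of 20 mitotic genes, against 19.5% of all genes. CCAAT, on either strand, was present for 14 of 23 and 18 of 20, against 39.7%. The endoplasmic reticulum stress element, a CCAAT followed at a fixed distance by CCACG, was matched in none of the 43 promoters and in 0.0916% of all genes. A match is a sequence description and not a measured binding site.

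The 6 promoters are printed as examples of both lists, 5′ to 3′ on the gene's strand, for the 200 bases before the start. The 4 S phase genes come first and the 2 mitotic genes last. Capitals mark the E2F, CHR and CCAAT letters above, read on either strand. The E2F match of GINS1 lies after its start and is not printed, so its run shows only a CCAAT. MCM6 is 1 of the 2 S phase genes with a CHR match, which also lies outside the printed bases. E2F2 is at chr1:23531234-23531433 (minus strand), GINS1 at chr20:25407473-25407672 (plus), MCM6 at chr2:135876444-135876643 (minus), POLA1 at chrX:24693718-24693917 (plus), MKI67 at chr10:128126424-128126623 (minus) and KIF11 at chr10:92592930-92593129 (plus).
E2F2: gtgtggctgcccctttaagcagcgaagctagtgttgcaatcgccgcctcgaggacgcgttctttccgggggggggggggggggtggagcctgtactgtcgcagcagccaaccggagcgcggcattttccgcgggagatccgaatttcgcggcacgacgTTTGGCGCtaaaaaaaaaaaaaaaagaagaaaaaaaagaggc
GINS1: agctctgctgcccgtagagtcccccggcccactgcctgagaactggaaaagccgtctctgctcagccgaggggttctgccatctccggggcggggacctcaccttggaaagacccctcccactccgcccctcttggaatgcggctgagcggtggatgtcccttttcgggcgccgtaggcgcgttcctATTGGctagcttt
MCM6: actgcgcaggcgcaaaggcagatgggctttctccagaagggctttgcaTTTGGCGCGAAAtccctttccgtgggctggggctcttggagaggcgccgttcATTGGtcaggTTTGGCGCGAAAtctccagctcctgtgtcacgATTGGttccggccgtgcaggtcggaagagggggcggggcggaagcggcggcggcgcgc
POLA1: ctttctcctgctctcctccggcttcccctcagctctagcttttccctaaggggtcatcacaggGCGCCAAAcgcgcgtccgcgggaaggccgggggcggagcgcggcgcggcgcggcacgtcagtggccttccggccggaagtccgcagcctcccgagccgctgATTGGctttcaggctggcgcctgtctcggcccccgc
MKI67: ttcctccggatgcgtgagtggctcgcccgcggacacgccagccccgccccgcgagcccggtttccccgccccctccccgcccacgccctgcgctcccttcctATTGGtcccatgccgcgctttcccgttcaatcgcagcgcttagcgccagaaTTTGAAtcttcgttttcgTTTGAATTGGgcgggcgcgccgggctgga
KIF11: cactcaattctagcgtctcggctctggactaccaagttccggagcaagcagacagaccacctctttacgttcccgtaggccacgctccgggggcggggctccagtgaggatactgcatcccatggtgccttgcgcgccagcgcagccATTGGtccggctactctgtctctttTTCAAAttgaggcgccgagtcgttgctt
MCM6, a helicase subunit, has 2 runs in which E2F letters on the opposite strands overlap, and 2 inverted CCAAT runs, 1 on each side of the second. MKI67, a coat protein of mitotic chromosomes, has 2 CHR runs, the second overlapping an inverted CCAAT. KIF11, the motor that separates spindle poles, has 1 CHR run downstream of 1 inverted CCAAT.

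Treatment and genotype were checked on other genes. HSPA5, the main chaperone of the endoplasmic reticulum, stood at 775 to 1119 CPM (values that are counts scaled to a common library size and composition) in DMSO libraries and at 7867 to 10959 CPM in tunicamycin libraries. The 2 control libraries of clone G6, whose title and treatment label disagree, stood at 999.6 and 816 CPM, within the DMSO range. IGF2BP3 was at 27.7 ± 10.8 CPM (SD, n = 6) in its knockout and 76.7 ± 7.22 CPM (SD, n = 4) in parental DMSO libraries, so transcript remained. IGF2BP2 was at 86.9 ± 5.33 CPM (SD, n = 6) in its knockout against 176 ± 19.9 CPM (SD, n = 4). Of 5 epithelial markers all were present in every library (summed 3019 to 5448 CPM). Of 6 markers of other cells COL1A1 was at 4.65 to 12.2 CPM, and PTPRC, CD3E, COL3A1, PECAM1 and ALB were at 0 to 0.148 CPM.

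Tunicamycin split the S phase genes and lowered part of the mitotic genes. In parental cells 5 of 26 S phase genes rose and 11 fell, and 1 of 24 mitotic genes rose and 9 fell. Over all genes tested, 25.9% were called (12.1% higher, 13.8% lower). In IGF2BP3 knockout the counts were 5 up and 7 down in S phase and 1 up and 10 down in mitosis, against 32% of all genes (15.3% and 16.8%). In IGF2BP2 knockout they were 6 up and 11 down, and 0 up and 10 down, against 38.2% of all genes (18.2% and 20.1%). The median log2 change of the S phase list was -0.04, -0.03 and -0.04 in parental, IGF2BP3 knockout and IGF2BP2 knockout cells, and that of the mitotic list was -0.15, -0.13 and -0.10. The medians of all genes tested were -0.01 in each. No member was called in opposite directions in different genotypes. In bulk RNA, fewer cells in a phase and less RNA per cell cannot be told apart.

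A set of 20 members, 4 higher and 16 lower, was called in the same direction in all 3 genotypes. Of all genes tested in each, 22.8% were so called (11% higher, 11.8% lower). CDC6, CDC45, RFC4 and RRM2 rose in each. The 16 that fell in each were E2F2, CCNE1, MCM10, GINS1, PCNA, POLE2 and SLBP of the S phase list and CCNA2, CCNB1, CDK1, PLK1, AURKA, BUB1, BUB1B, MKI67 and DLGAP5 of the mitotic list. A further 11 were called in 1 or 2 genotypes, and 19 were called in none. Some of the 20 depended on the settings of the fit, which are described at the end. RFC4 was called in 8 of 13, 8 of 12 and 6 of 13 other settings in parental, IGF2BP3 knockout and IGF2BP2 knockout cells. In parental cells CDC45 was called in 7 and CCNB1 in 6 of 13.

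**Figure D1:**
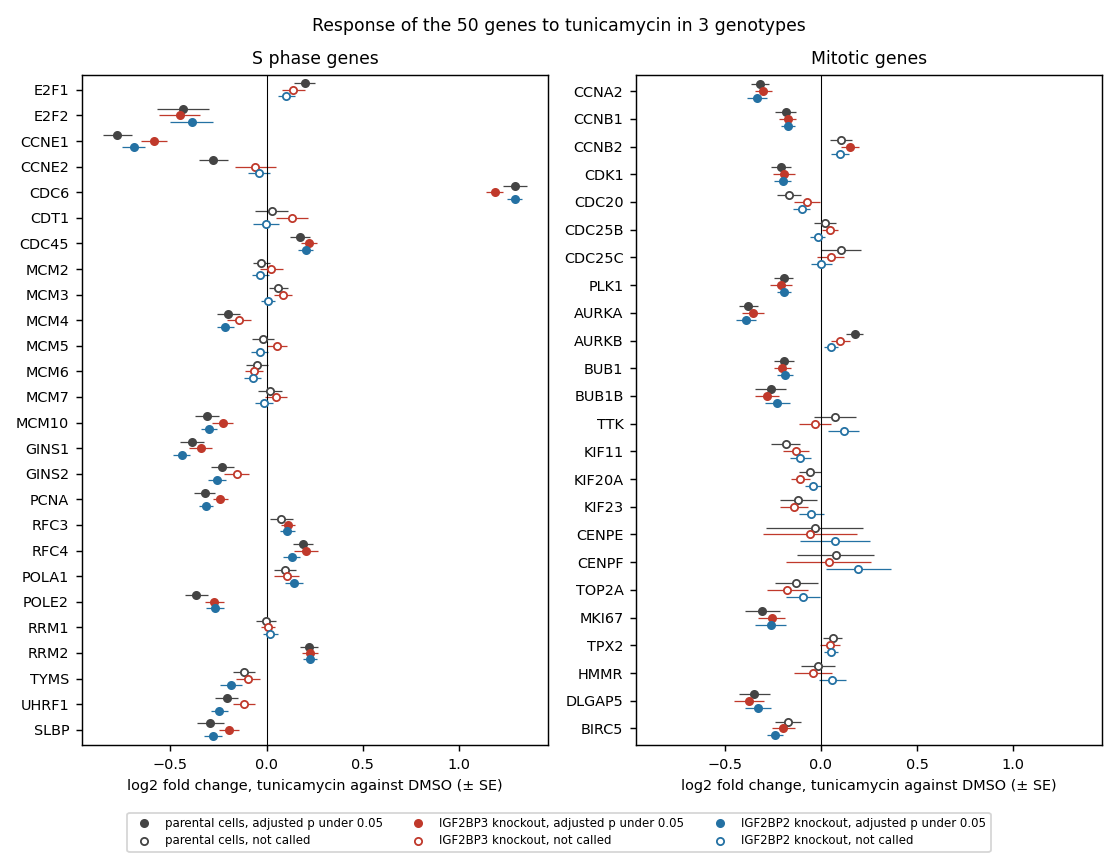
Log2 fold change with tunicamycin against DMSO (x axis, bars are SE) for each S phase gene (left) and mitotic gene (right) in parental, IGF2BP3 knockout and IGF2BP2 knockout cells; filled points had an adjusted p under 0.05. CDC6 is the highest in all 3 genotypes, from 1.18 to 1.29, and CCNE1 is the lowest, from -0.78 to -0.59.

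Among the factors that start S phase, CCNE1, the cyclin that drives entry, fell most. Parental sample 1 had 49.0 and 45.5 CPM in DMSO and 26.3 and 23.6 CPM in tunicamycin, and parental sample 2 had 42.3 and 44.3 CPM against 27.4 and 28.3 CPM. The IGF2BP3 knockout libraries ran from 43.1 to 51.5 CPM (median 45.6) in DMSO and from 25.1 to 35.0 CPM (median 30.5) in tunicamycin, and the IGF2BP2 knockout libraries from 38.0 to 47.0 CPM (median 41.8) and from 20.7 to 28.8 CPM (median 26.6). No tunicamycin library reached the lowest DMSO library. CCNE1 changed on the log2 scale by -0.78 (SE 0.07, adjusted p 4.26e-05), -0.59 (SE 0.07, adjusted p 7.67e-06) and -0.69 (SE 0.06, adjusted p 3.25e-07) in parental, IGF2BP3 knockout and IGF2BP2 knockout cells by edgeR, quasi-likelihood, Benjamini-Hochberg adjusted. Its paralogue CCNE2 fell only by 0.28 on the log2 scale in parental cells (SE 0.08, adjusted p 0.0231), with changes of -0.06 and -0.04 that were not called in the knockouts.

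E2F1 and E2F2, activating E2F factors, did not move together. E2F2 had 5.49, 5.33, 6.57 and 4.82 CPM in parental DMSO libraries and 4.21, 3.49, 4.15 and 4.58 CPM in tunicamycin. In IGF2BP3 knockout it had 5.14 to 6.53 CPM (median 5.76) against 3.31 to 4.83 CPM (median 4.22), and in IGF2BP2 knockout 4.46 to 5.50 CPM (median 5.09) against 3.32 to 4.87 CPM (median 3.68). Treatments overlapped in IGF2BP2 knockout but not in the other two. The log2 fold changes were -0.43 (SE 0.14), -0.45 (SE 0.11) and -0.39 (SE 0.11), with adjusted p 0.0397, 0.00415 and 0.0113 by the same edgeR test. E2F1 had 48.9, 44.3, 48.5 and 47.5 CPM in parental DMSO libraries and 51.6, 49.1, 58.7 and 57.2 CPM in tunicamycin. The parental groups did not overlap, and E2F1 rose by 0.20 (SE 0.05, adjusted p 0.0242 by edgeR). In the knockouts its treatments overlapped and its changes of 0.14 and 0.10 were not called. E2F2 in parental cells was called in 6 of 13 settings, and E2F1 lost its call whenever 1 parental replicate was left out.

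Of the licensing genes, which load the MCM helicase, CDC6 gave the largest change of the 50 genes in each genotype. CDC6, the ATPase that loads the helicase, stood at 199, 170.3, 205 and 170.1 CPM in parental DMSO libraries and at 477.5, 444, 451 and 439.8 CPM in tunicamycin. In IGF2BP3 knockout it stood at 184 to 221 CPM (median 191) and 431 to 463 CPM (median 447), and in IGF2BP2 knockout at 167 to 189 CPM (median 177) and 416 to 443 CPM (median 426). Every tunicamycin library lay above every DMSO library. CDC6 rose on the log2 scale by 1.29 (SE 0.06, adjusted p 3.89e-07), 1.18 (SE 0.04, adjusted p 4.99e-11) and 1.29 (SE 0.04, adjusted p 1.75e-12) by edgeR, quasi-likelihood, Benjamini-Hochberg adjusted.

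Its partners did not follow. CDT1, the other loading factor, had log2 changes of 0.03, 0.13 and -0.00, none called. Of the 6 MCM2 to MCM7 helicase subunits, MCM4 fell by 0.20 in parental cells and by 0.21 in IGF2BP2 knockout, and its -0.14 in IGF2BP3 knockout was not called. MCM2, MCM3, MCM5, MCM6 and MCM7 were called in no genotype, with changes between -0.07 and 0.08. Of the 8 licensing genes 2, 1 and 2 were called in the 3 genotypes, a share no higher than the 25.9%, 32% and 38.2% of all genes.

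The 4 firing factors, which turn the loaded helicase into a moving one, did not move together. CDC45, which joins the helicase, rose by 0.18, 0.22 and 0.20 (SE 0.05, 0.04 and 0.04), with adjusted p 0.0318, 0.000614 and 0.00082 by edgeR. Its parental libraries went from 50.7, 45.2, 48.9 and 46.9 CPM in DMSO to 52.0, 52.6, 55.5 and 55.8 CPM. Treatments did not overlap in parental and IGF2BP3 knockout cells and did in IGF2BP2 knockout. GINS1, a subunit of the GINS ring that binds CDC45, went from 87.0, 78.5, 89.9 and 76.7 CPM to 66.8, 58.1, 67.3 and 61.0 CPM in parental cells. It went from 71.1 to 86.2 CPM (median 78.9) down to 55.6 to 67.2 CPM (median 63.2) in IGF2BP3 knockout, and from 72.4 to 99.1 CPM (median 79.9) down to 51.8 to 69.3 CPM (median 57.8) in IGF2BP2 knockout. The groups did not overlap in any genotype. GINS1 fell by 0.39, 0.34 and 0.44 on the log2 scale (SE 0.06, 0.06 and 0.04; adjusted p 0.00122, 0.000422 and 1.33e-06 by edgeR). MCM10, which helps to activate the helicase, fell by 0.31, 0.23 and 0.30, and GINS2, another GINS subunit, by 0.23 in parental cells and 0.26 in IGF2BP2 knockout. GINS2 was not called in IGF2BP3 knockout but was lower in all 16 pairs of tunicamycin and DMSO libraries of the same line and number.

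DNA synthesis genes also divided. PCNA, the sliding clamp, fell by 0.32, 0.24 and 0.32 and POLE2, a subunit of the leading strand polymerase, by 0.37, 0.27 and 0.27. RFC4, a subunit of the loader that places PCNA on DNA, rose by 0.19, 0.21 and 0.13. RFC3, its partner in the loader, rose by 0.11 in both knockouts, and POLA1, the primase-linked polymerase, rose by 0.14 in IGF2BP2 knockout. In IGF2BP2 knockout the RFC3 and POLA1 calls each held in 7 of 13 settings. Without the clone G6 control libraries both were lost, as was that of RFC4, and POLA1 had an adjusted p of 0.327 by edgeR. In parental cells RFC3 and POLA1 had changes of 0.08 and 0.10 that were not called.

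Of the nucleotide genes, RRM2, the regulated subunit of ribonucleotide reductase, rose from 722, 658, 718 and 671 CPM to 833, 790.2, 795 and 797 CPM in parental cells. It stood at 625 to 749 CPM (median 679.7) and 732 to 848 CPM (median 784) in IGF2BP3 knockout, where the treatments overlapped. In IGF2BP2 knockout it stood at 613 to 694 CPM (median 632) and 698 to 758 CPM (median 748), with no overlap. The log2 fold changes were 0.22, 0.23 and 0.23 (SE 0.05, 0.04 and 0.04; adjusted p 0.0063, 0.000888 and 0.000149 by edgeR). RRM1, the large subunit of the same enzyme, stayed between -0.00 and 0.02 and was not called. TYMS, which makes thymidylate, fell by 0.19 in IGF2BP2 knockout. Its call held in 8 of 13 settings and was lost without the clone G6 control libraries. SLBP, which binds the stem loop of histone mRNAs, fell by 0.29, 0.20 and 0.28, and UHRF1, which copies DNA methylation marks, fell by 0.21 in parental cells and 0.25 in IGF2BP2 knockout. UHRF1 was not called in IGF2BP3 knockout but was lower in all 16 pairs of libraries of the same line and number.

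**Figure D2:**
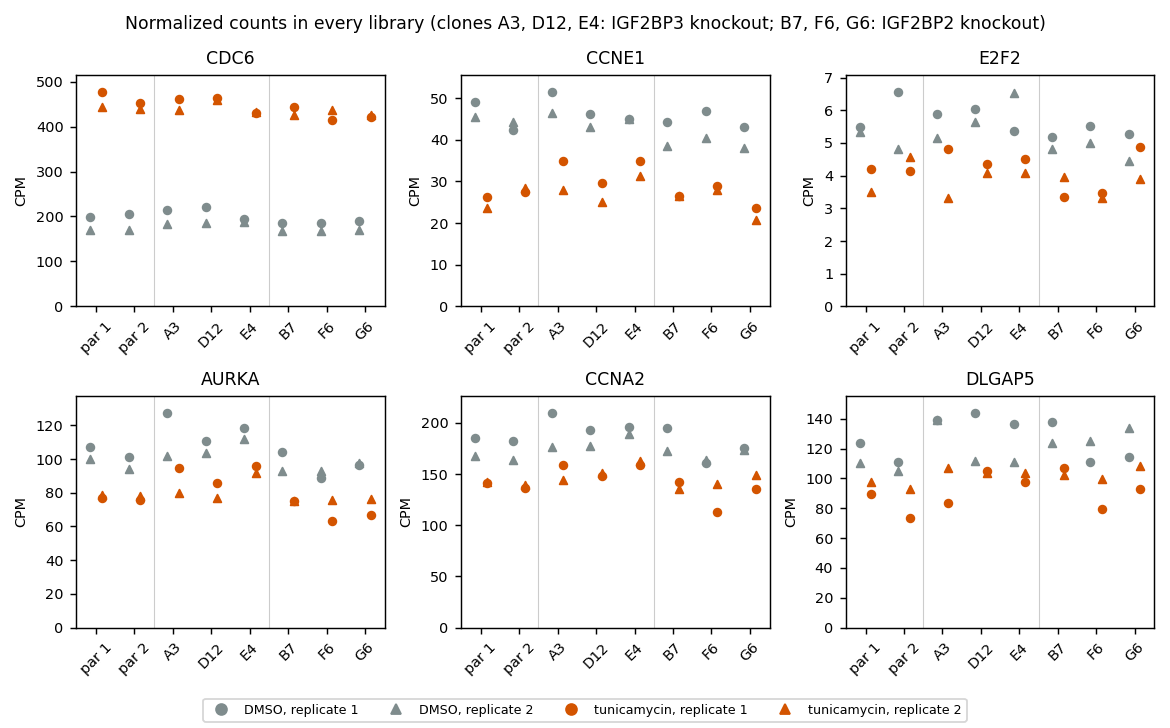
CPM of 6 genes in all 32 libraries (y axis, from 0), by line on the x axis (par 1 and par 2 are the parental samples), with DMSO in grey, tunicamycin in orange, and circles and triangles for libraries numbered 1 and 2. CDC6 is at or above 416 CPM in every tunicamycin library and at or below 221 CPM in every DMSO library, and CCNE1 stays at or below 35.0 CPM against at least 38.0 CPM.

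Among the cyclins and kinases of mitosis, CCNA2, CCNB1, CDK1, PLK1 and AURKA fell in all 3 genotypes, while CCNB2 and AURKB each rose in 1. CCNA2, the cyclin of S and G2 phase, had 185, 167, 182 and 163 CPM in parental DMSO libraries and 141, 142, 137 and 139 CPM in tunicamycin. It had 177 to 209.9 CPM (median 191) and 144 to 162 CPM (median 155) in IGF2BP3 knockout, and 161 to 195 CPM (median 173) and 113 to 149 CPM (median 138) in IGF2BP2 knockout. No genotype's treatments overlapped. CCNA2 fell by 0.32, 0.30 and 0.33 on the log2 scale (SE 0.05, 0.04 and 0.05; adjusted p 0.0009, 0.000105 and 0.000131 by edgeR). CCNB1 and CDK1, which form the kinase of mitotic entry, fell by 0.18, 0.17 and 0.17 and by 0.21, 0.19 and 0.20. CCNB2, a second B-type cyclin, rose by 0.15 in IGF2BP3 knockout and had changes of 0.10 in the other 2 genotypes that were not called. CDC25B and CDC25C, phosphatases that activate CDK1, were called in no genotype.

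AURKA, a kinase of spindle poles, stood at 107, 100.3, 102 and 94.1 CPM in parental DMSO libraries and 77.1, 78.7, 75.7 and 77.9 CPM in tunicamycin. It stood at 102 to 128 CPM (median 111) and 76.7 to 96.1 CPM (median 88.7) in IGF2BP3 knockout, and at 89.1 to 104 CPM (median 94.99) and 63.0 to 76.3 CPM (median 75.2) in IGF2BP2 knockout. Treatments did not overlap in any genotype. AURKA fell by 0.38, 0.35 and 0.39 (SE 0.05, 0.06 and 0.05; adjusted p 0.000283, 0.000211 and 3.06e-05 by edgeR). PLK1, the Polo kinase, fell by 0.19, 0.21 and 0.19. AURKB, the kinase of the chromosomal passenger complex, rose by 0.17 in parental cells, and its changes of 0.10 and 0.05 in the knockouts were not called. TPX2, which activates AURKA, had changes of 0.05 to 0.06, not called.

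DLGAP5, which stabilizes spindle fibres at kinetochores, gave 124, 111, 111 and 105 CPM in parental DMSO libraries (samples 1, 1, 2 and 2) and 89.4, 97.4, 73.5 and 93.0 CPM in tunicamycin. In IGF2BP3 knockout it gave 111 to 144 CPM (median 138) and 83.4 to 107 CPM (median 104), and in IGF2BP2 knockout 111 to 138 CPM (median 125) and 79.6 to 108 CPM (median 101). Again no treatments overlapped, and the log2 fold changes were -0.35, -0.37 and -0.32 (SE 0.08, 0.08 and 0.07; adjusted p 0.00994, 0.00171 and 0.00138 by edgeR). BUB1 and BUB1B, kinase family members of the spindle checkpoint, fell by 0.19, 0.20 and 0.19 and by 0.26, 0.28 and 0.23, while TTK, another checkpoint kinase, and CDC20, which the checkpoint holds back, were not called. Over 16 pairs of tunicamycin and DMSO libraries of the same line and number, CDC20 was lower in all 16. TTK was lower in 5 and higher in 11. MKI67 fell by 0.30, 0.26 and 0.26, but in IGF2BP3 knockout its change was -0.0511 (adjusted p 0.246 by edgeR) without libraries numbered 1, and its call was lost without any 1 of the 3 clones. BIRC5, survivin, fell by 0.20 and 0.24 in the knockouts. In parental cells it was not called, with log2 (CPM + 1) differences of -0.23 and -0.23 in sample 1 and -0.11 and -0.13 in sample 2. The motors KIF11, KIF20A and KIF23, the spindle protein HMMR, the kinetochore proteins CENPE and CENPF and topoisomerase TOP2A were called in no genotype.

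Parental calls changed when the DMSO and tunicamycin libraries of 1 parental sample and number were left out together. Of 26 members called, the count became 8 without those numbered 1 of parental sample 1. It became 12 without those numbered 2 of sample 1, and 17 without those numbered 2 of sample 2. Fewer libraries enter these fits, so a lost call does not show dependence on a single library. In IGF2BP3 knockout the 23 called members became 14 without clone D12 and 13 without clone E4. CDC6, CCNE1, GINS1, PCNA, POLE2, AURKA and CCNA2 kept their calls in all 13, 12 and 13 settings of the 3 genotypes.

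Other genes of the pathway were measured in the same libraries. Of 40 other S phase genes, 3, 3 and 3 rose and 9, 7 and 12 fell in parental, IGF2BP3 knockout and IGF2BP2 knockout cells. The shares called were 30%, 25% and 37.5%, near the 25.9%, 32% and 38.2% of all genes. USP1, a deubiquitinase that acts on PCNA, rose by 0.67, 0.63 and 0.68, and FEN1, the flap nuclease of Okazaki fragments, fell by 0.65, 0.58 and 0.64. Of 40 other mitotic genes, 4, 6 and 7 rose and 11, 14 and 15 fell. Their shares called were 37.5%, 50% and 55%, against the same shares of all genes. CCNF, the F-box cyclin, fell by 0.65, 0.56 and 0.59 and GTSE1, which binds microtubules and p53, by 0.55, 0.46 and 0.53, while the centromeric histone CENPA rose by 0.36, 0.29 and 0.26.

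Regulators upstream of both lists were also measured, and 6, 7 and 9 rose while 9, 12 and 13 fell of the 34, 34 and 33 tested. The shares called were 44.1%, 55.9% and 66.7%, against 25.9%, 32% and 38.2% of all genes. The inhibitors CDKN1A and CDKN1B rose by 0.62, 0.41 and 0.38 and by 0.60, 0.53 and 0.55, and CDKN2B, an inhibitor of the cyclin D kinases, by 1.24, 0.81 and 1.10. GADD45A, a stress gene that can inhibit CDK1, rose by 2.13, 1.99 and 1.92. CCND1, cyclin D1, fell by 0.46, 0.43 and 0.51, and CDC25A, which activates CDK2, by 0.43, 0.35 and 0.43. The repressive E2F factors parted: E2F7 rose by 0.51, 0.56 and 0.57 and E2F8 fell by 0.43, 0.34 and 0.38. BTG2, an antiproliferative gene, fell by 0.85, 1.06 and 0.93.

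No difference in response between genotypes was called. The interaction of treatment with genotype called 0 genes for IGF2BP3 knockout against parental, IGF2BP2 knockout against parental and IGF2BP3 against IGF2BP2 knockout by edgeR (0% of genes tested; 257, 219 and 284 genes had an unadjusted p under 0.05, and DESeq2 also called 0). Among the members 0, 2 and 0 had such a p, and 2 were called between the knockouts without libraries numbered 1. CDC6 differed by -0.10 (SE 0.07), 0.00 (SE 0.07) and -0.09 (SE 0.06) in these 3 contrasts and CCNE1 by 0.20 (SE 0.11), 0.09 (SE 0.10) and 0.11 (SE 0.09). A p that misses the threshold does not show that the responses were equal. These contrasts share libraries, each group entering 2 of the 3.

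Few members were called between genotypes by edgeR without a term for the library number, and the counts with that term are given at the end. In DMSO, IGF2BP3 knockout against parental cells gave 2 called mitotic genes and 0 S phase genes, against 1.61% of all genes, and DESeq2 called 8 members. All 24 mitotic genes had a log2 change above 0, between 0.02 and 0.29 with a median of 0.15, where the median of all genes was 0.00. The S phase genes had 15 above and 11 below 0, with a median of 0.01. In tunicamycin 0 members were called by edgeR (0.718% of all genes; 11 members had an unadjusted p under 0.05 and DESeq2 called 1), and the mitotic median was 0.17, again with 24 above 0. The 40 other mitotic genes had 37 above 0 and a median of 0.13 in DMSO, with 0 called. The mitotic genes share libraries and the same 4 parental libraries, so they are not separate observations.

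TTK stood at 72.3, 73.0, 67.5 and 71.3 CPM in the parental DMSO libraries and at 76.0 to 92.7 CPM (median 89.0) in the 6 IGF2BP3 knockout DMSO libraries. BUB1 stood at 154, 143, 155 and 145 CPM and at 157 to 188 CPM (median 173). For both genes every knockout library lay above every parental one. TTK was higher by 0.27 (SE 0.06) and BUB1 by 0.21 (SE 0.04), each with an adjusted p of 0.0293 by edgeR, quasi-likelihood, Benjamini-Hochberg adjusted. TTK kept its call in 10 and BUB1 in 7 of 17 settings. With counts summed per line, which makes the line the unit, the adjusted p values were 0.0719 and 0.13, and no member was called. Without the libraries numbered 1 they were 0.704 and 0.595.

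Of the regulators, CDKN1A was higher by 0.48 (SE 0.09, adjusted p 0.0137 by edgeR) in the same contrast, at 171 ± 22.8 CPM (SD, n = 6) against 122 ± 5.68 CPM (SD, n = 4). BTG2 was higher by 0.54 (SE 0.07, adjusted p 0.00117) and LIN54, the MuvB subunit that binds the CHR, by 0.22 (SE 0.04, adjusted p 0.0182), both by edgeR. In tunicamycin CDKN2B was lower by 0.74 (SE 0.15, adjusted p 0.0497 by edgeR). Called regulators were 3 of 33 tested in DMSO and 1 of 34 in tunicamycin, against 1.61% and 0.718% of all genes. The library, not the line, was the unit in these fits. CDKN1A in IGF2BP2 knockout averaged 170.4 ± 33.2 CPM (SD, n = 6) in DMSO and was not called.

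IGF2BP2 knockout against parental cells gave 0 called members by edgeR in DMSO and in tunicamycin, against 0.0137% and 0.00694% of all genes. Of the members 3 and 7 had an unadjusted p under 0.05, and DESeq2 called 0 and 0. The medians of the mitotic list were -0.01 and -0.02 and those of the S phase list -0.03 and -0.04. Between the knockouts, edgeR called 1 member in each treatment, against 0.589% of all genes in DMSO and 0.391% in tunicamycin, and DESeq2 called 6 and 9. PLK1 in DMSO was at 151 to 175 CPM (median 170.0) in IGF2BP3 knockout and 129.5 to 151 CPM (median 138) in IGF2BP2 knockout, a difference of 0.27 (SE 0.04, adjusted p 0.00991 by edgeR), with ranges that overlapped slightly. CDC25B in tunicamycin was at 244 to 317 CPM (median 289.5) and 207 to 242 CPM (median 223), a difference of 0.34 (SE 0.07, adjusted p 0.0473 by edgeR), with no overlap. Both calls were lost with counts summed per line (adjusted p 0.504 and 0.39).

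**Figure D3:**
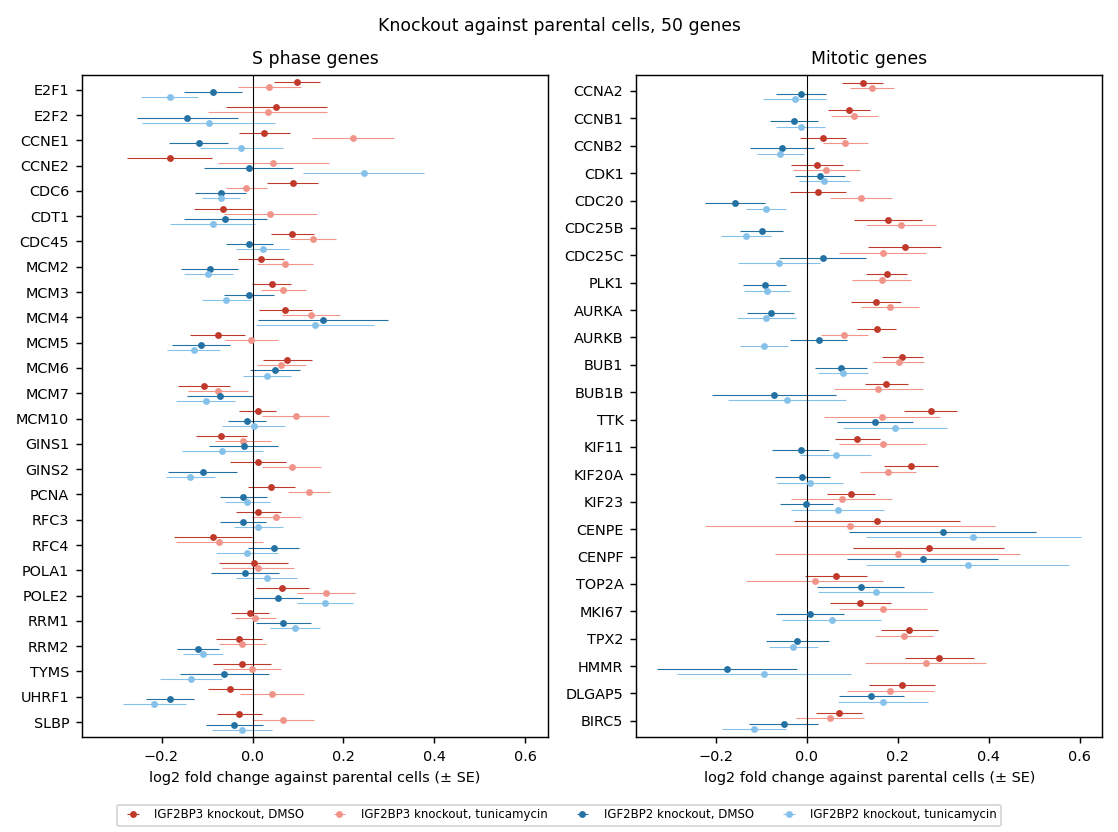
Log2 fold change of each knockout against parental cells (x axis, bars are SE) in DMSO and in tunicamycin, for S phase genes (left) and mitotic genes (right). In IGF2BP3 knockout all 24 mitotic genes lie above 0 in both treatments, though only TTK and BUB1 in DMSO were called, while IGF2BP2 knockout values lie on both sides of 0.

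More members were called among the IGF2BP2 knockout clones than between any pair of genotypes, but the tests differ. Clone tests used the libraries of both treatments. Genotype tests used 1 treatment and had no term for line, so the spread between clones entered their error. The counts therefore do not compare the size of clone and genotype differences. Among the IGF2BP2 knockout clones 9 of 26 S phase genes and 7 of 24 mitotic genes differed, against 24.6% of all genes. Among the IGF2BP3 knockout clones 1 and 1 differed, RFC4 and CDC25B, against 7.05%. These totals of 16 and 2 moved with the library numbers: they were 14 and 9 without libraries numbered 2, and 31 and 24 without libraries numbered 1. The 2 parental samples gave 0 called members and 0 called genes by edgeR (2 members with an unadjusted p under 0.05, DESeq2 0), with 4 and 1 members called without libraries numbered 2 and 1.

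Clones B7 and F6 came from the same guide and lay at opposite ends for several members. Both guides are shown because they separate shared from differing clones. They match GRCh38 within the coding part of exon 1 of 16 of IGF2BP2, at chr3:185824895-185824914 for the guide of B7 and F6 and at chr3:185824837-185824856 for that of G6.
Guide of B7 and F6: gagctgccggaggtcgtcgg
Guide of G6: aggcgtagccggacttcagc
Against its 2 fellow clones, B7 was higher for 5 S phase and 6 mitotic genes and lower for none, where 16.9% of all genes were called (9.46% higher). F6 was lower for 10 S phase and 5 mitotic genes and higher for none, where 18.7% were called (9.96% lower). G6 had 1 higher and 3 lower members, against 11.9%. Each clone was in the reference of the other 2. These contrasts are therefore not separate results, here or in the IGF2BP3 knockout clones. Without libraries numbered 1 the calls for B7, F6 and G6 were 24, 21 and 16, and without libraries numbered 2 they were 13, 15 and 1. F6 also stood apart on the marker lists by line mean: the mean log2 level of the 5 epithelial markers was 9.15 against 8.42 to 8.83 in the other 7 lines, and that of the 6 markers of other cells was 0.49 against 0.56 to 0.62. Single libraries overlapped. Epithelial levels ran from 8.86 to 9.39 in F6 and reached 9.09 in A3. Levels of the other-cell markers ran from 0.43 to 0.58 in F6 and began at 0.51 in parental sample 2. Of these 6 markers only COL1A1 was above trace level. The part of the marker lists in the differences of F6 was not tested.

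HMMR, the hyaluronan-mediated motility receptor that acts at the spindle, showed the widest spread between clones. In F6 it was at 54.3 and 55.0 CPM in DMSO and 46.8 and 61.3 CPM in tunicamycin. In B7 it was at 94.2 and 90.0 CPM and at 102.6 and 93.4 CPM, and in G6 at 76.7 and 93.7 CPM and at 82.8 and 93.2 CPM. All 4 libraries of F6 lay below all others of the series, since the lowest elsewhere was 67.1 CPM in a parental tunicamycin library. The log2 differences from the other 2 clones were -0.74 (SE 0.08) for F6, 0.46 (SE 0.07) for B7 and 0.28 (SE 0.07) for G6, with adjusted p 9.63e-06, 0.000468 and 0.021 by edgeR. The references of B7 and G6 both held the low F6.

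MCM4 stood at 834 and 717 CPM in DMSO and 644 and 635 CPM in tunicamycin in B7. It stood at 499 and 486 CPM and at 425 and 426 CPM in F6, and at 557 and 474 CPM and at 471 and 421 CPM in G6. B7 lay above every other IGF2BP2 knockout library, treatments pooled, and the difference was 0.58 (SE 0.04, adjusted p 5.1e-07 by edgeR). F6 was lower by 0.34 (SE 0.05) and G6 by 0.23 (SE 0.05), with adjusted p 0.000109 and 0.00383 by edgeR. Both references held the high B7, and the ranges of F6 and G6 overlapped. The other helicase subunits did not follow this size: F6 was lower for MCM2, MCM3 and MCM7 by 0.15, 0.16 and 0.19, and B7 was called for none of them.

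BUB1B stood apart in G6, at 97.8 and 119 CPM in DMSO and 96.1 and 96.7 CPM in tunicamycin. B7 had 169 and 176 CPM and 144 and 142 CPM, and F6 had 130.2 and 150.2 CPM and 103 and 126 CPM. Within DMSO, and within tunicamycin, G6 was below both other clones. The differences were -0.45 (SE 0.07) for G6 and 0.45 (SE 0.07) for B7, with adjusted p 0.000561 and 0.000268 by edgeR. CCNE2 was higher in B7 by 0.36 (SE 0.06) and lower in F6 by 0.37 (SE 0.06). B7 had 22.4 to 23.6 CPM and F6 13.9 to 17.7 CPM over both treatments, with no overlap. GINS1 was higher in B7 by 0.28 (SE 0.05) and lower in G6 by 0.19 (SE 0.05).

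In IGF2BP3 knockout, RFC4 was at 65.0 and 57.5 CPM in DMSO and 68.0 and 78.9 CPM in tunicamycin in clone E4, below A3 and D12 in DMSO (74.5 to 88.4 CPM). The difference from the other clones was -0.33 (SE 0.07, adjusted p 0.00775 by edgeR). CDC25B was at 308 to 317 CPM in E4, 256 to 308 CPM in A3 and 244 to 249 CPM in D12. E4 was higher by 0.25 (SE 0.04) and D12 lower by 0.25 (SE 0.04), with adjusted p 0.00268 and 0.00519 by edgeR. Relative to its fellow clones A3 had 0 called members by edgeR (2.59% of all genes; 3 members had an unadjusted p under 0.05 and DESeq2 called 0), D12 had 1 (3.2%) and E4 had 2 (6.82%). Without libraries numbered 2 these counts were 4, 5 and 4, and without libraries numbered 1 they were 20, 6 and 15. A3 and E4 share a guide and D12 has another. Without the 2 control libraries of G6, the calls for B7 became 7 and those for G6 became 2.

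**Figure D4:**
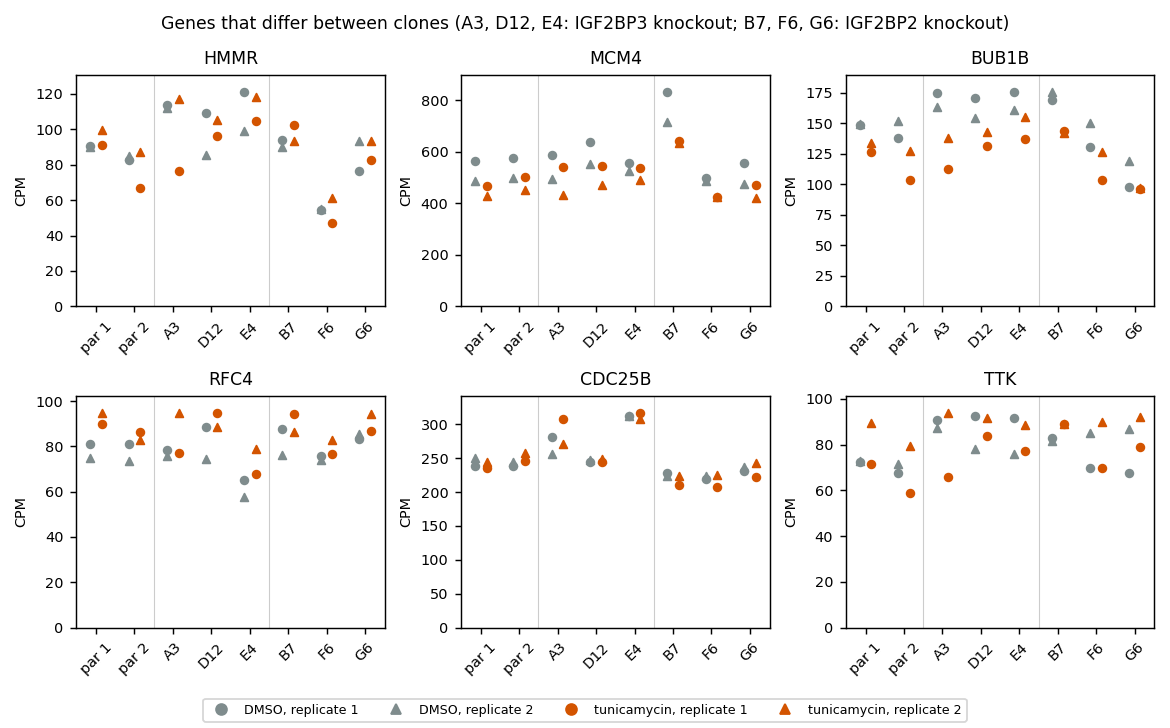
CPM of 6 genes in all 32 libraries (y axis, from 0), by line on the x axis (par 1 and par 2 are the parental samples), with DMSO in grey, tunicamycin in orange, and circles and triangles for libraries numbered 1 and 2. F6 stands lowest for HMMR, B7 highest for MCM4, G6 low for BUB1B, and E4 lowest for RFC4 in DMSO and highest for CDC25B, while TTK overlaps between the clones.

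The replicate number moved many genes, and the members about as often as all genes tested. Libraries numbered 2 differed from those numbered 1 for 53.4% of all genes, and for 1 S phase gene up and 14 down and 8 mitotic genes up and 5 down. CDT1, CDC20 and MCM7 were lower by 0.24, 0.16 and 0.15, and CENPE, CENPF and TTK were higher by 0.47, 0.35 and 0.16. Libraries numbered 2 also had counts for more genes (23423 to 24267 against 21259 to 23139).

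Responses were therefore also fitted within each number over all 8 lines, added after seeing the data. The S phase list had 7 up and 11 down in libraries numbered 1 (48.2% of all genes called) and 8 up and 11 down in libraries numbered 2 (52.8%). The mitotic list had 2 up and 15 down in the first and 5 up and 11 down in the second. Averaged over the 24 mitotic genes, the log2 (CPM + 1) difference between tunicamycin and DMSO was -0.31 to -0.04 in the 8 lines for number 1 and -0.09 to 0.03 for number 2. For the 26 S phase genes it was -0.12 to 0.01 and -0.06 to 0.01.

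CENPE and CENPF, long kinetochore transcripts, had changes of -0.26 (SE 0.14) and -0.16 (SE 0.12) in number 1 and 0.22 (SE 0.13) and 0.35 (SE 0.12) in number 2, where CENPF was called. DLGAP5 fell in both, by 0.45 and 0.25, and MKI67 by 0.36 and 0.18. The difference in response between the numbers called 0 members by edgeR against 0.135% of all genes. Of the members 18 had an unadjusted p under 0.05, DESeq2 called 3, and 18 were called without clone G6. MKI67, CENPF and CENPE are the longest members (12807, 11690 and 9444 exonic bases in GENCODE 29). Over the 50 genes, Pearson's r between log2 exonic length and the difference in response was 0.535 (Spearman's rho 0.36), and over all 16101 genes with a length 0.126 (0.142). The part of transcript length in these values was not tested.

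**Figure D5:**
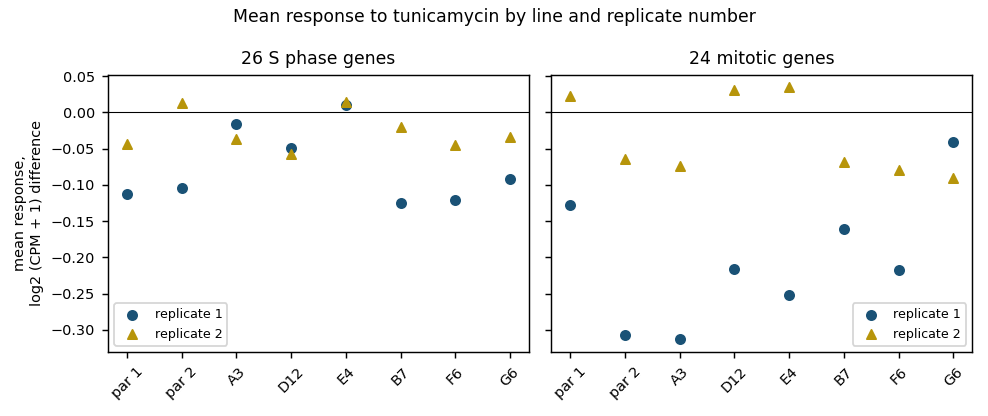
Mean of the log2 (CPM + 1) difference between tunicamycin and DMSO (y axis) over 26 S phase genes (left) and 24 mitotic genes (right), for each line on the x axis, with circles for libraries numbered 1 and triangles for those numbered 2. For the mitotic genes all 8 circles lie below 0, between -0.31 and -0.04, and the triangles lie between -0.09 and 0.03.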

How the data were processed

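RNA was measured in 32 libraries of HCT116 lines by directional poly(A) sequencing, per the labels' protocols. The authors deposited raw counts per gene as whole numbers. STAR 2.7.5c and hg38 are named in the submitters' processing notes. The counting tool, annotation and strand setting are not given in the sources used here. Groups came from sample titles, and the clone G6 control libraries were placed in DMSO by title. Counts were tested with edgeR 4.0.16 in R 4.3.3 (TMM normalization, filterByExpr, quasi-likelihood test, Benjamini-Hochberg adjustment over all genes tested, threshold 0.05), with DESeq2 1.42.0 as an alternative. Response fits held a term for each line. CPM values were normalized by TMM over the 32 libraries, and a pseudocount of 1 was used only for differences between single libraries. Scripts were tested on simulated data. Members given in full were, per comparison, the 3 with the largest rise and the 3 with the largest fall among called members with a mean count of at least 100. CCNA2, CCNE2 in the clones and the genes described by library number were chosen after their values were seen. The members and lists were chosen with earlier results of these data known. Other settings, and leaving out each library number, clone or parental replicate (all its libraries in the comparison), were also fitted.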

Additional observations from a re-analysis of the deposited data

Results flagged for a closer look

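For RRM2, 2 of 66 groups of values had 1 library far from the others, measured as its gap to the nearest library over the group's range. Replicate 1 of clone G6 was the highest of the 6 IGF2BP2 knockout DMSO libraries at 693.81 CPM. Replicate 1 of parental sample 1 was the highest of the 4 parental tunicamycin libraries at 833.1 CPM. Chance marks about 1 in 20 such groups.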

How the results depend on the processing

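Counts below are members called. No filter on low counts gave 5 for IGF2BP3 knockout against parental cells in DMSO, 3 for IGF2BP3 against IGF2BP2 knockout in DMSO, 2 for D12, 2 for the parental samples and 16 for the response difference between library numbers. DESeq2 gave 8 and 1 for IGF2BP3 knockout against parental cells in DMSO and tunicamycin, 6 and 9 for IGF2BP3 against IGF2BP2 knockout, 2 for D12 and 3 for the number difference. Same-numbered libraries shared part of their deviations: the correlation was over 0.1 in 118 of 120 pairs, with a median of 0.351. On the second principal component of all libraries, with 15% of the variance, the numbers separated fully. The main fits of treatment, genotype and clones held no term for the number, which the replicate block adds. With the replicate block, these 4 genotype comparisons gave 7, 1, 4 and 5, with 6 for the IGF2BP3 clones, 30 for the IGF2BP2 clones, 5 for D12, 6 for E4, 23 for B7 and 12 for G6; the tunicamycin responses gave 29, 30 and 31. DESeq2 with the replicate block gave 10, 2, 10 and 13 for the same 4, 2 for IGF2BP2 knockout against parental cells in DMSO, 7 and 31 for the IGF2BP3 and IGF2BP2 clones, 1 for A3, 5 for D12, 6 for E4, 22 for B7 and 10 for G6. Counts summed per line gave 0 for IGF2BP3 knockout against parental cells in DMSO and 0 and 0 against IGF2BP2 knockout, where fewer samples enter. All 32 libraries in 1 fit gave 0, 5 and 7 for these 3. Leaving out the G6 controls gave 7 for B7, 2 for G6 and 17 for the number difference. The cause was not tested.

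Leaving out 1 replicate, line or number at a time gave 8 to 30 for tunicamycin in parental cells, 13 to 32 in IGF2BP3 knockout, 0 to 4 for IGF2BP3 knockout against parental cells in DMSO, 0 to 1 against IGF2BP2 knockout in either treatment, 0 to 2 for the interaction of the knockouts, 9 to 24 and 14 to 31 for the IGF2BP3 and IGF2BP2 clones, 4 to 20 for A3, 5 to 6 for D12, 4 to 15 for E4, 13 to 24 for B7, 1 to 16 for G6, 1 to 4 for the parental samples and 0 to 18 for the number difference. Log2 changes that turned sign ran, for tunicamycin, from -0.25 to 0.34 (CENPF, parental), and in IGF2BP3 knockout from -0.57 to 0.62 (CENPF), -0.76 to 0.53 (CENPE), -0.29 to 0.21 (HMMR) and -0.26 to 0.19 (TTK). For the interaction of the knockouts CENPE ran from -0.96 to 0.50. Between clones they ran from -0.39 to 0.51 (CENPF), -0.38 to 0.63 (CENPE), -0.21 to 0.17 (HMMR) and -0.30 to 0.19 (TOP2A) in A3, -0.32 to 0.30 (CENPF) in E4, -0.14 to 0.54 (CENPF) and -0.0703 to 0.14 (MKI67) in B7, and -0.45 to 0.13 (CENPE) in G6.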
